A study of Homo sapiens with 15 samples.

Results

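The genes described here are CDKN2A, CDKN2B and MTAP, which neighbour each other at 9p21, and the G1 cell cycle genes CDKN1B, CCND2, CCND3, CDK4, CDK6, RB1 and CCNE1. They were taken by gene symbol, and all 10 were present among the 12995 genes of both deposited tables. RNA was sequenced from 15 libraries in 5 groups of 3. SCC15 and SCC25 come from oral cancers, and OKF6, from normal oral epithelium, is their reference. Both cancer lines carried lentiviral Cas9 and a doxycycline-controlled guide RNA against YBX1, and were sorted for GFP together with mCherry before expansion. Cells without doxycycline are the +YBX1 groups, which the labels call wild type. Cells given doxycycline at 1 µg/ml for 3 days are the –YBX1 groups, so –YBX1 cells differ from +YBX1 cells in the drug as well as in editing. The culture medium was serum-free K-SFM for OKF6 and SCC25 but serum-containing DMEM for SCC15, and line and medium cannot be told apart wherever SCC15 is set against another line. Whether OKF6 carried the lentiviral constructs is not stated.

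CDKN2A encodes p16INK4A and, from an upstream first exon and another reading frame, p14ARF. p16INK4A and the CDKN2B product p15INK4B bind CDK4 and CDK6 and keep them from the D-type cyclins, whereas p14ARF binds MDM2. Active cyclin D kinases and then cyclin E-CDK2 phosphorylate the retinoblastoma protein RB1, which releases E2F factors and lets the cell pass from G1 into S phase. MTAP lies beside CDKN2A and is often lost together with it in tumours, including head and neck cancers.

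At 9p21 the MTAP start lies 192.7 kb from the CDKN2A start, and the CDKN2B start 14.0 kb from it on the other side. The levels of the 3 genes parted in the cancer lines, so the sequence around their starts is printed. Each window runs from 250 bases before a transcript start to 50 bases after it, 5′ to 3′ on the gene's strand, from RefSeq on GRCh38.p14. Capitals mark a GC box (GGGCGG or its reverse complement) or a CCAAT box in either orientation. The direct box reads CCAAT on the gene's strand. The inverted box reads ATTGG there and is the element for which Y-box proteins are named.
CDKN2A, upstream start (p14ARF side), chr9:21995275-21995574, minus strand: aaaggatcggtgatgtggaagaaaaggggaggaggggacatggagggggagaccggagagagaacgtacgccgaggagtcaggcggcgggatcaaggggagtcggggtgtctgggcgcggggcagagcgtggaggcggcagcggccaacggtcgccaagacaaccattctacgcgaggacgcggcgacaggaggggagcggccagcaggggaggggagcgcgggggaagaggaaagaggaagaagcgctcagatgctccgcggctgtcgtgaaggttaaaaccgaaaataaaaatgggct
CDKN2A, inner start (p16INK4A side), chr9:21974808-21975107, minus strand: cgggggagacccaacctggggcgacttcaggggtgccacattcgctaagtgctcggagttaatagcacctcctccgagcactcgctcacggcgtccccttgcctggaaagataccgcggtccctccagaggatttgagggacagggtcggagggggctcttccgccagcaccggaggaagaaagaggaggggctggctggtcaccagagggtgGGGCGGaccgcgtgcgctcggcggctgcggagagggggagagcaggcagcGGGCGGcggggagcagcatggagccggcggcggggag
CDKN2B, chr9:22009256-22009555, minus strand: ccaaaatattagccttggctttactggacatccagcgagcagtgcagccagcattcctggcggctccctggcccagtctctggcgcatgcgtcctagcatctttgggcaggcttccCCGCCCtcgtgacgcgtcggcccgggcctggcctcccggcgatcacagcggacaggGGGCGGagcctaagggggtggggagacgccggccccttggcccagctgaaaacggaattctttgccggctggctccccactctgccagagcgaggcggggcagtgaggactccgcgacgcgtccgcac
MTAP, chr9:21802386-21802685, plus strand: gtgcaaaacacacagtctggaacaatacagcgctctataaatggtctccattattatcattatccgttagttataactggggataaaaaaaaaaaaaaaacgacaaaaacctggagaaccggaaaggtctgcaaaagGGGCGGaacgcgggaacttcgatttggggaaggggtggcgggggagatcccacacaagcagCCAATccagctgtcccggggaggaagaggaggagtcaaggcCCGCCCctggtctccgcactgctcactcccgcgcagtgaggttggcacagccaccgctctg
The CDKN2A windows hold 28 and 26 CpG dinucleotides, the CDKN2B window 25 and the MTAP window 15. Only the MTAP window of these 4 has a CCAAT box, 52 bases before the start and in direct, not inverted, orientation. RefSeq gave 13 windows for 9 of the 10 genes. A CCAAT box in either orientation was found in 4 of the 13, against 34.6% of 35116 promoter windows. A GC box was found in 9 of the 13, against 45.0% of all windows. None of the 13 holds an E2F site spelled TTTCCCGC, TTTCGCGC, TTTGCCGC or TTTGGCGC, which 3.31% of all windows do. These tallies include windows inside genes, and the 1 window of RB1, chr13:48476200-48476499 with 0 CpG, lies far downstream of the start of that gene. A match of letters is a description of the window and not a measured site.

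Between 4075290 and 6118501 reads were counted on genes per library, and a single read is worth 0.138 to 0.226 CPM, the read count scaled to library size. The OKF6 libraries had 871, 1547 and 1285 genes at 0 reads, against 463 to 718 in the other 12, and OKF6 replicate 2, with the most such genes, was also the shallowest. OKF6 is the reference of most results below, and the part of this difference in them was not tested. Levels are given as deposited log2 CPM or as the whole reads recovered from them. Squamous epithelial markers summed to 25844 to 33407 CPM in OKF6 and 13945 to 23370 CPM in SCC25 +YBX1. In SCC15 +YBX1 the same 12 markers summed to only 125 to 132 CPM, with each of the 12 lower than in both other lines, so SCC15 carries little of the transcript set that defines its tissue. That difference accompanies every SCC15 result below, and its part in them was not tested. Of other markers, 2 of 9 fibroblast genes (at most 98.1 CPM summed), 3 of 7 leukocyte genes (at most 59.8 CPM) and 0 of 6 endothelial genes were measured, with the fibroblast gene LUM at 0 reads in OKF6. In such bulk samples fewer expressing cells and less RNA per cell cannot be told apart. Nothing in the labels says that the 3 libraries of a group came from separate cultures, so p-values measure the spread between these libraries, which may be technical.

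YBX1, the targeted gene, was lower in each –YBX1 library than in every +YBX1 library of its line. Its mean log2 CPM was 6.55 ± 0.22 (SD, n = 3) in SCC25 +YBX1 and 4.54 ± 0.82 in SCC25 –YBX1. The SCC15 means were 5.55 ± 0.44 in +YBX1 and 3.40 ± 0.29 in –YBX1 libraries.

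To ask how the 3 lines differ in G1 control, the +YBX1 cancer lines and OKF6 were compared with limma over all 12995 genes. Against OKF6, 7 of the 10 genes passed an adjusted p of 0.05 in SCC15, 2 higher and 5 lower, where 50.3% of all genes did (26.9% higher, 23.4% lower). In SCC25, 6 of 10 passed, 1 higher and 5 lower, against a background of 30.2% (18.9% higher, 11.3% lower). Between SCC15 and SCC25, 4 of 10 passed, 2 each way, against 43.6% (20% higher, 23.6% lower). The ranges of the 2 groups were separate for 8 of 10 genes in SCC15 against OKF6 (54.4% of all genes), 7 in SCC25 against OKF6 (43.3%) and 6 between the cancer lines (66.6%). CCND2, CDK6, RB1 and MTAP were lower and CDK4 higher than OKF6 in both lines, CDKN2A was nearly absent from SCC25, CDKN2B was low in SCC15, and CCNE1 was high in SCC15. The OKF6 libraries serve both comparisons with OKF6, and each cancer line also serves the third comparison, so these 3 counts are not independent.

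**Figure D1:**
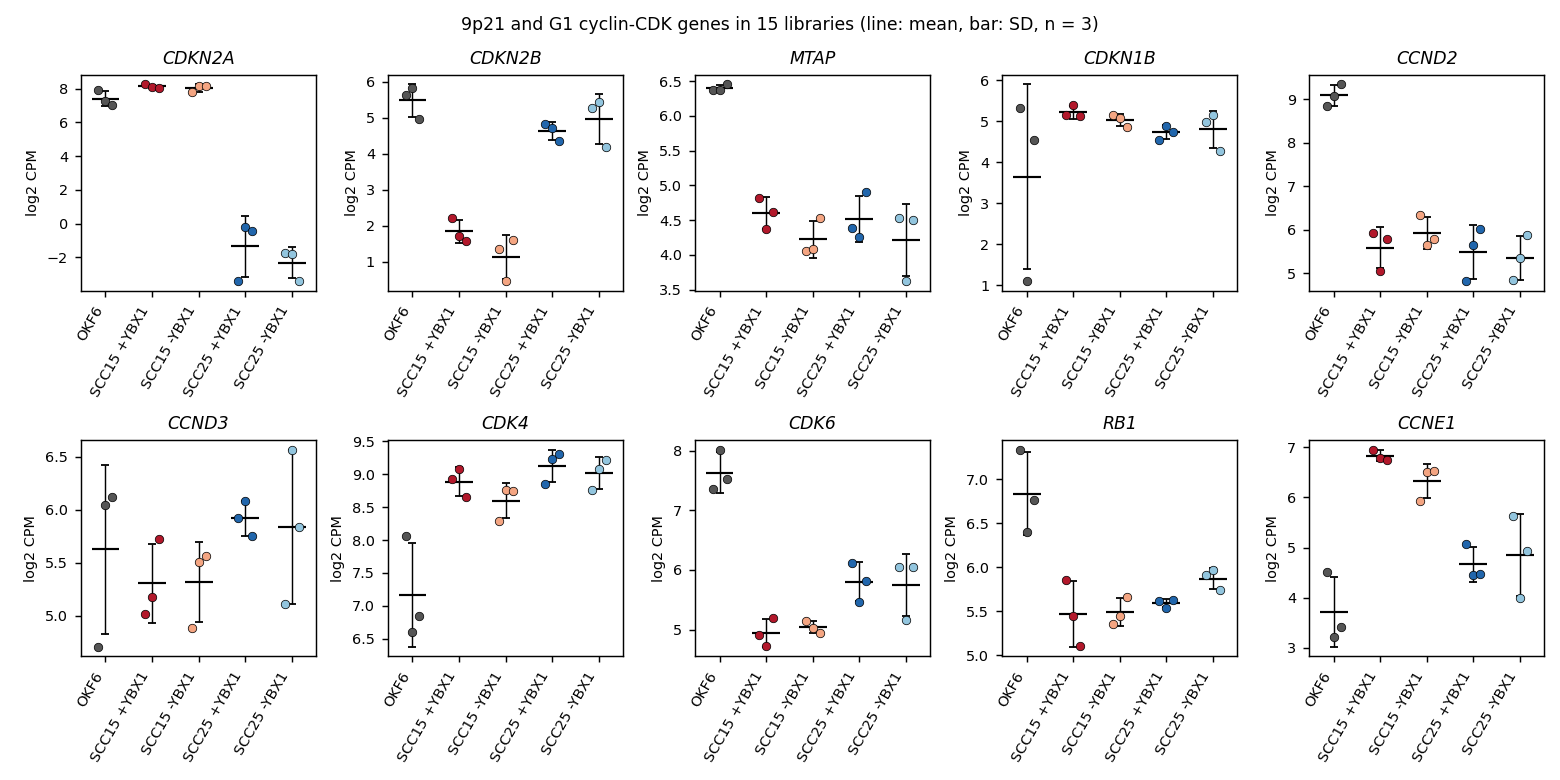
Log2 CPM (vertical axis, own scale per panel) of the 10 genes in each of the 15 libraries, by group, with points for libraries, a line for the mean and a bar for the SD (n = 3). CDKN2A falls below 0 in the SCC25 libraries, CDKN2B is lowest in SCC15, and MTAP, CCND2, CDK6 and RB1 are highest in OKF6.

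CDKN2A (9:21967752-21995301, hg38, minus strand) had 1258, 685 and 779 reads in the OKF6 libraries. The SCC15 +YBX1 libraries held 1675, 1646 and 1714. SCC25 +YBX1 libraries held 0, 4 and 3 reads. The SCC25 reads lie at the limit of detection, far below both other lines, whose ranges on the log2 scale did not overlap either. Summed over its libraries, SCC25 +YBX1 stood at 0.460 CPM (95% exact Poisson interval 0.185 to 0.948), a level 379-fold below OKF6 (interval 184 to 945) and 610.5-fold below SCC15 +YBX1 (296 to 1519). These intervals cover counting error only. The limma log2 difference was -8.76 ± 0.69 (SE) for SCC25 against OKF6 (adjusted p = 1.29e-05) and 9.49 ± 0.69 for SCC15 against SCC25 (adjusted p = 1.59e-06). SCC15 stood 0.73 ± 0.69 above OKF6, which did not pass (adjusted p = 0.401). That SE includes the spread among the 0, 4 and 3 reads of SCC25, since the groups share one estimate, and without SCC25 +YBX1 replicate 1 the same difference had an SE of 0.26 and an adjusted p of 0.0406. Both CDKN2A first exons splice to shared downstream exons, and 3′ end reads do not say which of the p16INK4A and p14ARF transcripts they came from.

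CDKN2B (9:22002903-22009305, minus strand), whose product p15INK4B is the INK4 inhibitor best known as a target of TGF-beta, had 258, 254 and 187 reads in OKF6. It had 25, 19 and 19 in SCC15 +YBX1 and 152, 132 and 99 in SCC25 +YBX1. All SCC15 libraries lay below all SCC25 libraries, which in turn lay below all OKF6 libraries on the log2 scale. SCC15 was 12.5-fold lower than OKF6 (log2 difference -3.65 ± 0.32, adjusted p = 4.85e-06) and 6.96-fold lower than SCC25 (-2.80, adjusted p = 4.58e-05). The SCC25 difference from OKF6 was -0.85 ± 0.32 and did not pass (adjusted p = 0.0718); without OKF6 replicate 3 it was -1.10 (adjusted p = 0.0321), and with voom weights its adjusted p was 0.0368. CDKN2A therefore took 72.9% to 83.0% of the reads on this INK4 gene pair in OKF6, 98.5% to 98.9% in SCC15 +YBX1 and 0% to 2.94% in SCC25 +YBX1. In an exact two-sided permutation test each pair of lines gave p = 0.10, the smallest that 3 against 3 libraries allow. Any separated ranges give this value, and the shares were chosen after the data were seen, so the test adds nothing to the ranges. The last exon of CDKN2B overlaps the antisense gene CDKN2B-AS1, and the strand setting of the counting is not given in the sources used here.

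MTAP (9:21802636-21937651, plus strand), the enzyme that returns methylthioadenosine to methionine, showed no such split. It had 431, 365 and 519 reads in OKF6, 155, 122 and 159 in SCC15 +YBX1, and 111, 97 and 143 in SCC25 +YBX1. The cancer lines overlapped each other and lay wholly below OKF6, where log2 CPM was 6.40 ± 0.05 (SD, n = 3). MTAP fell by 71.1% in SCC15 (log2 difference -1.79 ± 0.23, adjusted p = 7.74e-05) and fell by 72.8% in SCC25 (-1.88 ± 0.23, adjusted p = 0.000211). SCC15 and SCC25 differed by 0.09, with a 95% interval of -0.42 to 0.60, and this was not past the threshold (adjusted p = 0.791). MTAP reads thus persisted in SCC25, whose CDKN2A reads were at the limit of detection. The last exon of MTAP overlaps an unmeasured long noncoding RNA gene on the same strand. That gene also overlaps the last exons of CDKN2A and CDKN2B on the other strand. How many of the reads belong to it was not tested.

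The genes around the trio were read from a list of 29 genes at 9p21 and its flanks, of which 19 were measured. Against OKF6, 3 of the 19 were higher and 7 lower in SCC15, and 1 was higher and 7 lower in SCC25. Their median log2 difference was -0.39 in SCC15 and -0.72 in SCC25, against 0.10 and 0.13 over all genes. HACD4, a fatty acid elongation enzyme gene 964 kb from the CDKN2A start, had no read in any of the 6 SCC15 libraries, and over the 3 +YBX1 libraries this is at least 53.6-fold below OKF6 and at least 33.0-fold below SCC25. DMRTA1, a DM-domain factor gene 452 kb away on the other side, also had no read in SCC15, at least 29.5-fold below OKF6 (floor of 3 reads over the group). SCC25 +YBX1 held 6 DMRTA1 reads in all against 77 in OKF6 (-3.77 ± 0.74, adjusted p = 0.00356). MIR31HG, the host transcript of miR-31, fell by 4.67 on the log2 scale in SCC15 (adjusted p = 0.000645) and stood at 0.58 in SCC25 (adjusted p = 0.618). IFNE, the interferon epsilon gene, had 1 read over the SCC15 +YBX1 libraries against 33 in OKF6 and 38 in SCC25 (adjusted p = 0.0118 for SCC15 against OKF6 by limma). KLHL9, between HACD4 and MIR31HG, was higher in SCC15 (0.99, adjusted p = 0.0389), a call that was kept in only 1 of 9 fits with a library left out. FOCAD differed from OKF6 by -0.15 in SCC15 and -0.14 in SCC25, neither past the threshold. PLIN2, a lipid droplet coat gene 2846 kb away on the telomeric side, was listed at 0 reads in OKF6, with 618 in SCC15 and 10 in SCC25. Low and readily detected genes thus alternated along the locus in both cancer lines.

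**Figure D2:**
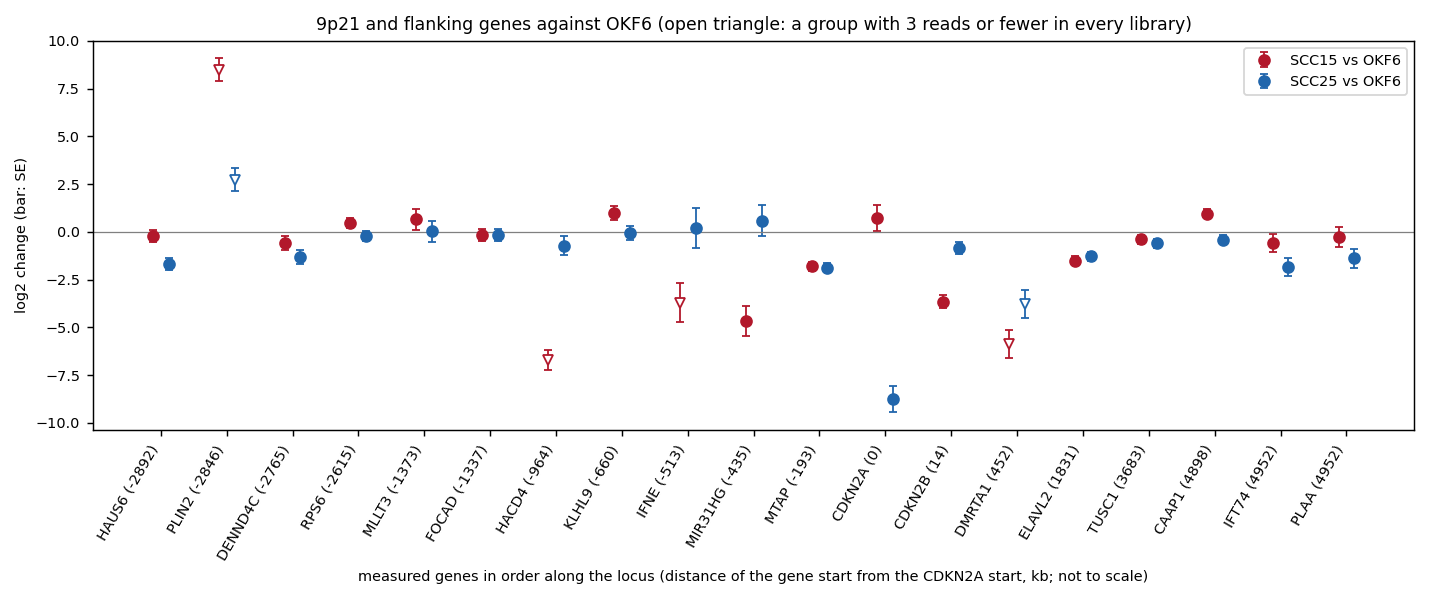
Log2 difference from OKF6 (vertical axis, bar: SE) for the 19 measured genes in genomic order (not to scale), with the distance of each gene start from the CDKN2A start in kb, for SCC15 (red) and SCC25 (blue). Open triangles mark differences in which a group had 3 reads or fewer in every library, whose size depends on the added 0.5 reads. CDKN2A in SCC25, with 0, 4 and 3 reads, is drawn filled, but its size depends on the added 0.5 reads as well. CDKN2A at -8.76 is the lowest value in SCC25, where DMRTA1 stands at -3.77. HACD4, DMRTA1, MIR31HG, IFNE and CDKN2B lie at -3.65 or below and PLIN2 at 8.48 in SCC15.

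CDKN1B (12:12685498-12722369) encodes p27KIP1, which inhibits cyclin E-CDK2. It had 209, 9 and 137 reads in OKF6, 194, 248 and 225 in SCC15 +YBX1, and 124, 150 and 129 in SCC25 +YBX1. OKF6 replicate 2 was far below the other 14 libraries, none of which had fewer than 101 reads. The differences from OKF6, 1.56 ± 0.83 in SCC15 (adjusted p = 0.141) and 1.08 ± 0.83 in SCC25 (adjusted p = 0.357), rest on that library. Without it they were 0.29 and -0.20, and without OKF6 replicate 1 the SCC15 difference was 2.40 (adjusted p = 0.0173).

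Of the 7 INK4 and CIP/KIP inhibitors, all measured, 3 were higher and 2 lower in SCC15 than in OKF6, and 1 was higher and 1 lower in SCC25. Their median log2 difference was 1.00 in SCC15 and 0.06 in SCC25. This and the other list counts stand against 26.9% of all genes higher and 23.4% lower in SCC15 (median 0.10), and 18.9% higher and 11.3% lower in SCC25 (median 0.13), and nothing particular to a list is read from them. CDKN2C (p18INK4C) was higher in SCC15 by 2.19 against OKF6 (adjusted p = 0.000264) and by 3.14 against SCC25 (adjusted p = 2.51e-05). CDKN1C (p57KIP2) was higher in both lines, by 4.05 in SCC15 (adjusted p = 0.00457) and 5.07 in SCC25 (adjusted p = 0.00278), with 0 to 19 reads per OKF6 library. CDKN1A (p21CIP1), an inhibitor of CDK2, was lower in SCC15 by 1.78 against OKF6 and 1.84 against SCC25. Without OKF6 replicate 3, 4 of the 7 passed in SCC25 in place of 2.

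CCND2 (12:4269771-4305353, plus strand), which encodes cyclin D2, had 2408, 2398 and 3848 reads in OKF6. The +YBX1 libraries held 335, 195 and 355 in SCC15 and 149, 252 and 311 in SCC25. Both cancer lines lay wholly below OKF6 and overlapped each other. CCND2 was 11.4-fold lower in SCC15 (-3.51 ± 0.32, adjusted p = 6.59e-06) and 12.1-fold lower in SCC25 (-3.60 ± 0.32, adjusted p = 2.92e-05). Between the cancer lines the log2 difference was 0.09, with a 95% interval of -0.62 to 0.81.

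CCND3 (6:41934934-42050357, minus strand) encodes cyclin D3 and had 136, 292 and 412 reads in OKF6, 177, 214 and 342 in SCC15 +YBX1, and 321, 344 and 259 in SCC25 +YBX1. The OKF6 range spanned every +YBX1 library of the cancer lines, and on the log2 scale all SCC15 libraries lay below all SCC25 libraries, though not in reads. The difference from OKF6 was -0.32 in SCC15 (adjusted p = 0.481) and 0.29 in SCC25 (adjusted p = 0.565), and between the cancer lines it was -0.61 (adjusted p = 0.190), none of which passed. OKF6 replicate 1, the lowest, decides this: without it SCC15 stood at -0.78 against OKF6 (adjusted p = 0.0138) and the difference from SCC25 passed as well (adjusted p = 0.0274).

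CCND1, which encodes cyclin D1 and lies at 11q13, a region often amplified in head and neck cancers, completes the D-type cyclins. It was lower in SCC15 than in OKF6 by 3.65 on the log2 scale (adjusted p = 1.60e-05) and higher in SCC25 by 2.99 (adjusted p = 0.000269). Of the reads on the 3 D-type cyclin genes, CCND2 took 76.1% to 78.5% in OKF6, 44.9% to 56.8% in SCC15 +YBX1 and 3.27% to 5.95% in SCC25 +YBX1. CCND1 took 85.9% to 89.9% in SCC25 +YBX1, against 12.3% to 17.1% in OKF6 and 5.76% to 13.2% in SCC15 +YBX1. The mean share of CCND3 was 7.36% ± 2.63 (SD, n = 3) in OKF6 and 41.5% ± 10.2 in SCC15 +YBX1, although its own level did not pass the test. The lines thus differed in which D-type cyclin gene gave the most reads, CCND2 in OKF6 and CCND1 in SCC25. The share of CCND2 was separated between all 3 lines. The exact two-sided permutation test gave p = 0.10, the smallest 3 against 3 libraries allow, which adds nothing to that separation. Reads were not divided by length, since each 3′ fragment stands for the end of a transcript, and a share is compared between libraries, not read as a ratio of transcripts.

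**Figure D3:**
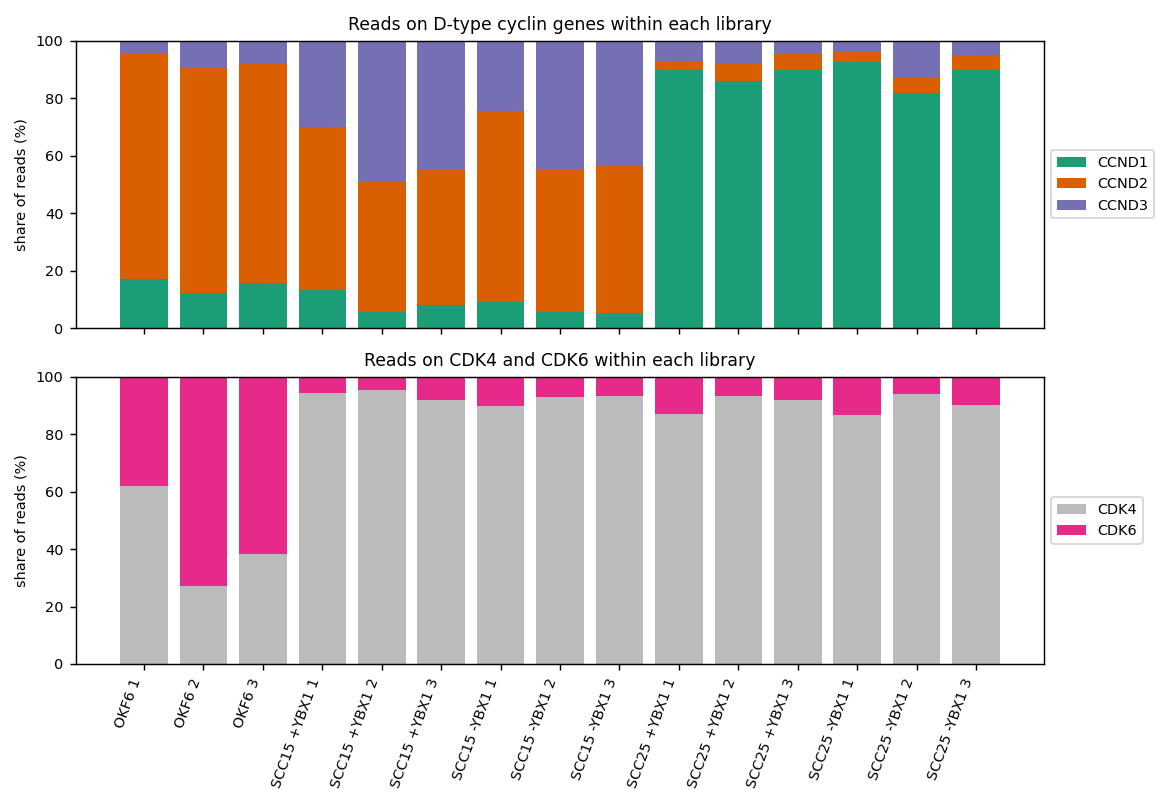
Share of reads in % (vertical axis) within each of the 15 libraries, for the 3 D-type cyclin genes (top) and for CDK4 and CDK6 (bottom). CCND2 fills most of the OKF6 bars and CCND1 most of the SCC25 bars, and CDK6 takes 37.9% or more of each OKF6 bar but 13.3% or less of every cancer line bar.

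CDK4 (12:57747727-57756013, minus strand), a catalytic partner of the D-type cyclins, had 1400, 430 and 679 reads in OKF6. It had 2683, 3202 and 2612 in SCC15 +YBX1 and 2458, 3034 and 3048 in SCC25 +YBX1. Every cancer library exceeded every OKF6 library, while the cancer lines overlapped. CDK4 was 3.29-fold higher in SCC15 (1.72 ± 0.34, adjusted p = 0.00149) and 3.89-fold higher in SCC25 (1.96 ± 0.34, adjusted p = 0.00172). The last exon of CDK4 overlaps TSPAN31 on the other strand, whose own level was lower in SCC15 than in OKF6 (-0.97, adjusted p = 0.0330) and stood at -0.26 in SCC25. How many of the reads on either gene belong to the other cannot be told apart without the strand setting.

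CDK6 (7:92604921-92836573, minus strand), the other catalytic partner, went the opposite way. Its reads were 855, 1146 and 1088 in OKF6, 165, 157 and 236 in SCC15 +YBX1, and 368, 223 and 271 in SCC25 +YBX1. The 3 lines were separated on the log2 scale, with SCC15 lowest. The difference from OKF6 was 6.44-fold in SCC15 (-2.69 ± 0.24, adjusted p = 5.57e-06) and 3.56-fold in SCC25 (-1.83 ± 0.24, adjusted p = 0.000350). SCC15 was below SCC25 by 0.85 (adjusted p = 0.0155), a call that was lost without SCC15 +YBX1 replicate 2 (adjusted p = 0.0610), without SCC25 +YBX1 replicate 1 (adjusted p = 0.0724) and with quantile normalization (adjusted p = 0.0774). Within a library CDK6 took 37.9%, 72.7% and 61.6% of the CDK4 and CDK6 reads in OKF6, 5.79%, 4.67% and 8.29% in SCC15 +YBX1 and 13.0%, 6.85% and 8.17% in SCC25 +YBX1. OKF6 was separated from both lines (exact two-sided permutation p = 0.10, the smallest possible, which adds nothing to that separation).

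CCNE1 (19:29811991-29824312, plus strand), which encodes cyclin E1, the activator of CDK2, had 119, 41 and 63 reads in OKF6. SCC15 +YBX1 held 678, 653 and 694 reads and SCC25 +YBX1 held 178, 111 and 106. SCC15 lay above both other lines, and SCC25 overlapped the top of OKF6. SCC15 was 8.59-fold above OKF6 (3.10 ± 0.33, adjusted p = 2.01e-05) and 4.47-fold above SCC25 (2.16 ± 0.33, adjusted p = 0.000378). The SCC25 difference from OKF6 was 0.94 ± 0.33 (adjusted p = 0.0551), and without OKF6 replicate 1 it was 1.34 (adjusted p = 0.00146).

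Among the 13 G1 cyclins, kinases and activators, 5 were higher and 4 lower in SCC15 than in OKF6, and 3 were higher and 4 lower in SCC25, with medians of -0.32 and 0.16. CDC25A, the phosphatase that activates CDK2, was higher in SCC15 by 2.23 (adjusted p = 5.15e-05). CDC37, a cochaperone for CDK4, was higher in SCC25 by 1.57 (adjusted p = 0.000732). CCNE2, the second cyclin E gene, was lower in SCC25 by 2.00 (adjusted p = 0.00799).

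RB1 (13:48303744-48599436, plus strand), the retinoblastoma gene, had 844, 375 and 645 reads in OKF6. SCC15 +YBX1 held 317, 259 and 224 and SCC25 +YBX1 held 261, 236 and 237. Both cancer lines lay below OKF6 and overlapped each other. It was 2.57-fold lower in SCC15 (-1.36 ± 0.27, adjusted p = 0.00141) and 2.36-fold lower in SCC25 (-1.24 ± 0.27, adjusted p = 0.00570). The cancer lines differed by -0.12, with a 95% interval of -0.71 to 0.46.

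Of the 3 pocket protein genes, RB1 was the one called against OKF6 in both lines; a second passed in SCC15 without OKF6 replicate 3 and in SCC25 without OKF6 replicate 1. RBL1 (p107) was lower in SCC15 than in SCC25 by 1.83 (adjusted p = 0.00337), at 13 to 54 reads per library. Of the 10 E2F and DP genes, 4 were higher and 2 lower in SCC15 than in OKF6, with a median of 0.88. E2F1, an activator of S phase genes, was higher in SCC15 by 1.93 (adjusted p = 7.32e-05) and E2F2 by 3.44 (adjusted p = 0.000301). E2F5 had 196 to 260 reads per SCC15 +YBX1 library, against 0 to 2 in SCC25 +YBX1 and a total of 12 in OKF6, all in 1 library. E2F7, a repressor, was lower in SCC15 by 2.40 (adjusted p = 0.00226). In SCC25, 2 E2F genes passed. Leaving out a library changed this to 4 (OKF6 replicate 1), to 1 (SCC15 +YBX1 replicate 1 or SCC25 +YBX1 replicate 3) or to 0 (OKF6 replicate 3, SCC25 +YBX1 replicate 1 or SCC25 +YBX1 replicate 2).

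Of 23 E2F targets of the G1/S step, 9 were higher and 1 lower in SCC15 than in OKF6, with a median of 0.64, where 26.9% of all genes were higher and 23.4% lower with a median of 0.10. CDT1, a licensing factor, was higher by 1.54 (adjusted p = 0.000108). In SCC25, 1 was higher and 2 lower, with a median of 0.03, against 0.13 over all genes. There MCM2, a subunit of the replicative helicase, was higher by 1.11 (adjusted p = 0.00113), and PCNA, the polymerase clamp, was lower by 1.05 (adjusted p = 0.00799). MCM2 was higher in SCC15 as well, by 1.53 (limma adjusted p = 3.60e-05). Without OKF6 replicate 1, 7 of the 23 passed in SCC25 in place of 3. Between the cancer lines, 11 were higher in SCC15 and 1 lower, where 20% of all genes were higher and 23.6% lower.

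MTAP belongs to methionine salvage, and its substrate inhibits PRMT5. Of 16 genes of that pathway and the PRMT5 complex, 5 were higher and 2 lower in SCC15, and 4 were higher and 4 lower in SCC25, with MTAP among the lower genes in both. The medians were 0.46 and 0.0045, against 0.10 and 0.13 over all genes, of which 50.3% and 30.2% passed in either direction. SRM, spermidine synthase, was higher by 1.75 in SCC15 (adjusted p = 0.000315) and 1.35 in SCC25 (adjusted p = 0.00416). MRI1, the next salvage enzyme after MTAP, was higher in SCC15 by 2.31 (adjusted p = 2.77e-05). PRMT5 itself stood above OKF6 in both lines, at 1.06 in SCC25 (adjusted p = 0.0108) and 0.69 in SCC15 (adjusted p = 0.0443). Its SCC15 range overlapped that of OKF6. Of 16 ubiquitin ligase genes of G1 regulators, 4 were higher and 2 lower in SCC15 and 1 was higher in SCC25, which was CKS1B, a cofactor in p27KIP1 turnover (1.82, adjusted p = 0.000158). CKS1B was higher in SCC15 as well, by 1.02 (limma adjusted p = 0.00238). Without OKF6 replicate 1 or 2, 3 or 2 of the 16 ubiquitin ligase genes passed in SCC25. SKP2, the receptor subunit for p27KIP1, was higher in SCC15 by 1.15 (adjusted p = 0.000342).

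**Figure D4:**
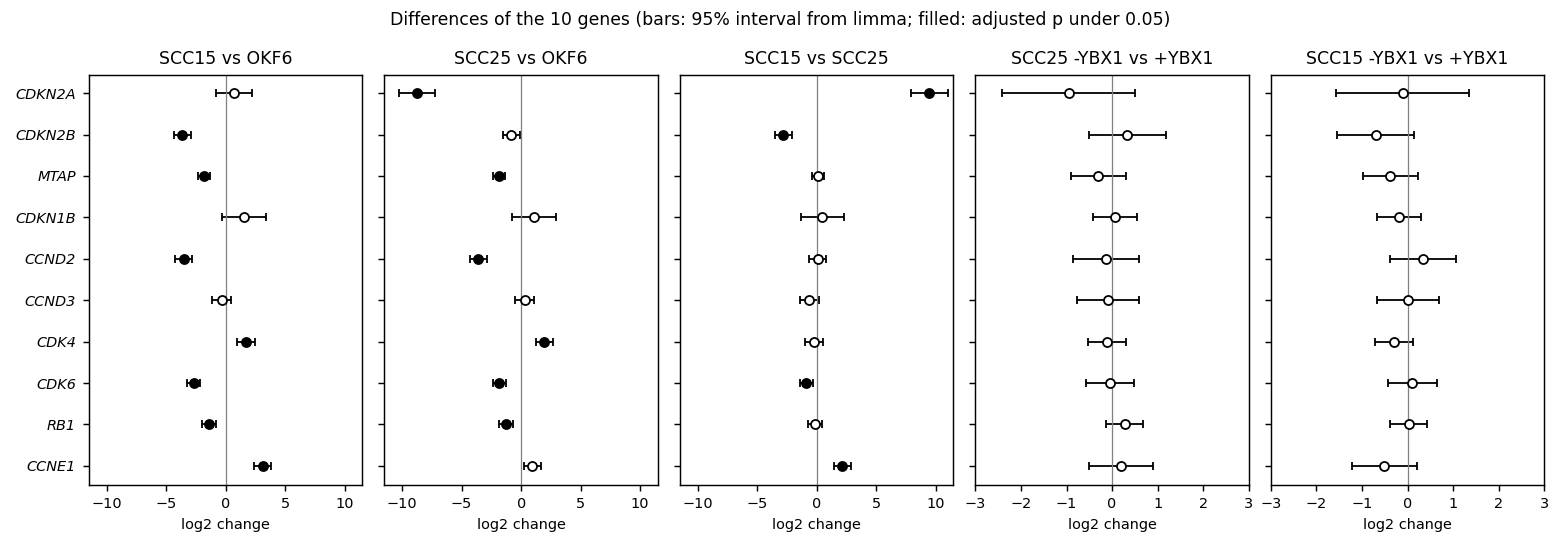
Log2 difference (horizontal axis) of the 10 genes in 5 comparisons, with bars for limma's 95% interval and filled points for an adjusted p under 0.05. The line panels and the –YBX1 panels have different scales, and in the 2 –YBX1 panels every interval includes 0.

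To ask whether loss of YBX1 moved these genes, –YBX1 and +YBX1 libraries were compared within each line. The fit used group means and did not pair libraries by replicate number. A separate pairing within each line was not tested, so the p-values and intervals below leave it out. None of the 10 passed in SCC25 or in SCC15, or in the test of the difference between the lines, and the background was 0 of 12995 genes in each of the 3. At an unadjusted p under 0.05, limma listed 401 genes (3.09%) in SCC25 and 302 (2.32%) in SCC15, with none of the 10 among either. Both shares are below the fraction of 0.05 that this threshold lists when nothing differs. For the difference between the lines, 294 genes (2.26%) did, again with none of the 10. With voom weights 0 genes passed adjustment, and 294, 277 and 267 passed unadjusted in SCC25, in SCC15 and for their difference. YBX1 itself fell by 2.01 ± 0.35 in SCC25 and by 2.15 ± 0.35 in SCC15 without passing adjustment (adjusted p = 0.290 and 0.326).

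CDKN2A stayed at the limit of detection in SCC25 –YBX1, with 1, 1 and 0 reads. The SCC25 –YBX1 libraries summed to 0.130 CPM (95% exact Poisson interval 0.0157 to 0.469), overlapping the interval of SCC25 +YBX1. In SCC15 –YBX1 the gene had 1585, 1737 and 1938 reads, a log2 change of -0.11 with a 95% interval of -1.57 to 1.35. SCC15 –YBX1 stood 2011-fold above SCC25 –YBX1, a ratio that rests on 2 reads in SCC25 (counting interval 556 to 16607).

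CDKN2B had 18, 8 and 20 reads in SCC15 –YBX1 and 195, 224 and 94 in SCC25 –YBX1. Its log2 change was -0.70 in SCC15 (95% interval -1.54 to 0.15) and 0.33 in SCC25 (-0.52 to 1.17). These lie on opposite sides of 0, and their difference of 1.03 had an unadjusted p of 0.0862 (adjusted p = 1.00). MTAP had 120, 105 and 154 reads in SCC15 –YBX1, lower in 3 of 3 same-numbered pairs of log2 values, with a change of -0.38 (-0.98 to 0.22). It had 116, 63 and 117 in SCC25 –YBX1, lower in 2 of 3 pairs.

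Ranges of the +YBX1 and –YBX1 groups were separate for 1 of the 10 genes in each line, where 7.04% of all genes were separate in SCC15 and 7.31% in SCC25. In SCC15 this was CCNE1, with 440, 564 and 613 reads without YBX1. Separate ranges fix the direction of every pair, and the CCNE1 pairs were lower by 1.02, 0.28 and 0.22. Its change of -0.51 had a 95% interval of -1.21 to 0.20 and its unadjusted p was 0.144. In SCC25 it was RB1, with 303, 322 and 278 reads and pairs that were higher by 0.29, 0.42 and 0.12. Its change of 0.28 had an interval of -0.13 to 0.68 and an unadjusted p of 0.162. CCNE1 stood at 0.19 in SCC25 (-0.51 to 0.89) and RB1 at 0.02 in SCC15 (-0.38 to 0.43).

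The remaining genes had changes between -0.29 and 0.34. Among these the narrowest intervals were those of CDK4, at -0.29 in SCC15 (-0.71 to 0.13) and -0.11 in SCC25 (-0.52 to 0.31). TSPAN31, which overlaps it, stood at 0.49 in SCC15 (unadjusted p = 0.0295, adjusted p = 1.00) and 0.37 in SCC25 (unadjusted p = 0.0891) by limma. CDK4 was lower in 3 of 3 SCC25 pairs, at -0.10, -0.14 and -0.09. CCND2 was higher in 3 of 3 SCC15 pairs, by 0.40, 0.61 and 0.0093. With only 3 pairs, all often go the same way when nothing differs, so nothing is read from the pair counts of the 10 genes. CDKN1B stood at -0.19 in SCC15 (-0.67 to 0.29) and 0.07 in SCC25 (-0.41 to 0.55). CDK6, CCND2 and CCND3 intervals all included 0 and reached at most 1.07 in SCC15, for CCND2. In both lines CDK6 kept a low share of the CDK4 and CDK6 reads, 6.68% to 10.2% in SCC15 –YBX1 and 6.13% to 13.3% in SCC25 –YBX1.

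Across all 15 libraries the levels were also set against every other gene with a symbol, by the root mean square difference of log2 values centred on each gene's mean. CDKN2A was most like LDOC1 (1.19), BACE2 (1.25) and C3orf14 (1.29), which still differed from it by more than 1 log2 unit on average. MTAP was more closely followed, by PDLIM5 (0.285), ADGRA3 (0.317) and TMEM131 (0.340). These are descriptions over 15 libraries of 3 lines, which share the differences between the lines.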

How the data were processed

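QuantSeq 3′ FWD libraries were made from total RNA and sequenced, 3 for each of 5 groups. Per the submitters' notes and methods, the authors used cutadapt for trimming, HISAT2 for alignment to hg38, featureCounts for counting and limma for normalisation. The authors deposited log2 CPM values, that is, log2 of reads plus 0.5 over the scaled library size. One table holds 9 libraries of the lines and the other 12 libraries of the YBX1 comparison, and the 6 shared libraries differ by at most 5.0e-08. Reads were recovered as whole numbers (tolerance 0.02). Groups and replicate numbers came from the labels. Differences were tested two-sided with limma 3.58.1 (variance trend, group means, R 4.3.3), with Benjamini-Hochberg adjustment over 12995 genes and a threshold of 0.05. Alternatives were each library left out, voom weights on recovered reads, 2 reads added before the log, quantile normalization, library medians set equal, genes above the first quartile of mean level, the replicate number as a block, and a fit of only the compared groups. Shares of reads were chosen after the data were seen. The fits were tested on simulated data. Gene positions are those of GENCODE 44 on hg38. Of 86 pieces of each gene's 3′ end aligned with minimap2 2.31, none matched as well elsewhere, and all mapped to their own gene but for CDK4, where 79 of 86 did. The genes and lists were chosen with earlier results of these data known. Named genes are the 10, YBX1, up to 3 genes each way with the largest change per list and comparison, and the 3 most like CDKN2A and MTAP. TSPAN31 and FOCAD were named after their values were seen. Lists were described by counts and medians only, and 1 of them is not reported here.

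For each replicate number, deviations of the –YBX1 and +YBX1 library from their group means were correlated over 6497 genes. The SCC25 pairs gave 0.135, 0.470 and 0.425, and the SCC15 pairs 0.498, 0.312 and 0.117. The means were 0.343 and 0.309, and of 6 libraries per line, 5 in SCC25 but only 3 in SCC15 were closest to their own number. The replicate numbers were taken to pair these libraries, less clearly in SCC15. This reading rests on the data, since the labels do not state a shared batch.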

Additional observations from a re-analysis of the deposited data

How the results depend on the processing

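The count of the 10 genes called stayed within 1.5 times its value in each alternative run: 7 to 9 for SCC15 against OKF6, 6 to 7 for SCC25 against OKF6, 3 to 6 for SCC15 against SCC25, and 0 with YBX1 loss. The highest of these, 6, came from fitting only the groups compared, where CDKN1B (adjusted p = 0.0358) and CCND3 (0.0253) also passed between the cancer lines. No share of all genes is set beside the counts of these alternative runs, and nothing particular to the 10 genes is read from them. With the replicate block, 0 genes of the 10 passed with YBX1 loss in either line or in their difference. That block gave both lines a shared effect per replicate number, so a separate pairing within each line was not tested. Between lines the numbers did not pair the libraries (mean correlation 0.092, -0.011 and -0.075, with 3, 2 and 1 of 6 libraries closest to their own number), and the block left 7 and 4 calls and gave 7 in place of 6 for SCC25 against OKF6, adding CCNE1 (adjusted p = 0.0277). Setting library medians equal shifted the median of all genes by 0.16 in SCC15 against OKF6 and 0.15 in SCC15 against SCC25, and quantile normalization shifted it by -0.18 in SCC25 against OKF6 and 0.18 in SCC15 against SCC25. Directions turned only for differences that were not called: CDK4 (0.14, quantile) and RB1 (0.0299, medians; 0.11, quantile) between SCC15 and SCC25, and CDKN2A (0.0042, quantile), CCND3 (-0.0156, medians) and RB1 (-0.0049, medians) with YBX1 loss in SCC15. With each library left out, ranges that crossed 0 were -0.20 to 1.91 (CDKN1B) and -0.16 to 0.54 (CCND3) for SCC25 against OKF6. For SCC15 against SCC25 they were -0.0408 to 0.28 (MTAP), -0.24 to 0.37 (CCND2) and -0.31 to 0.0567 (RB1). With YBX1 loss in SCC25 they were -0.10 to 0.33 (CDKN1B), -0.48 to 0.13 (CCND2), -0.45 to 0.28 (CCND3), -0.25 to 0.0242 (CDK4), -0.21 to 0.25 (CDK6) and -0.20 to 0.62 (CCNE1). In SCC15 they were -0.19 to 0.0153 (CDKN2A), -0.13 to 0.23 (CCND3), -0.0092 to 0.22 (CDK6) and -0.16 to 0.21 (RB1). For the difference between the lines they were -0.0788 to 0.38 (MTAP), -0.46 to 0.27 (CCND3), -0.31 to 0.16 (CDK6) and -0.22 to 0.58 (YBX1). List counts that moved by over 1.5 times outside the fits with a library left out were the 9p21 list with genes above the first quartile (5 in place of 10, 5 in place of 8 and 6 in place of 11, as fewer genes were tested), pocket proteins in SCC25 with voom weights (2 in place of 1), E2F and DP genes with only the groups compared (1 in place of 2 in SCC25, 7 in place of 4 between the cancer lines) and with quantile normalization (7 in place of 4), and the ubiquitin ligases (2 in place of 1 in SCC25 under 4 settings, 9 in place of 5 between the cancer lines with only the groups compared). Where no reason is given, the cause was not tested. At this depth 3 reads are worth at most 0.677 CPM, so a fall of CDKN2A with YBX1 loss in SCC25, from 0 to 4 reads per library, was not detectable, while the –YBX1 libraries allow at most 0.469 CPM.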
